A study of Mus musculus with 18 samples.

Results

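The 10 CXC chemokine genes *Ppbp*, *Pf4*, *Cxcl1*, *Cxcl2*, *Cxcl3*, *Cxcl9*, *Cxcl10*, *Cxcl13*, *Cxcl14* and *Cxcl16* were taken by symbol from the 37236 genes of a normalized count table of CD3+ tumor-infiltrating T cells (TILs). The T cells came from subcutaneous tumors of B16-OVA, a transplanted mouse melanoma line that carries ovalbumin, in wild-type *Nr2f6*+/+ or germline *Nr2f6*-/- mice on a C57BL/6 background, 8 to 12 weeks old. All mice received 500000 tumor cells and, from d3, repeated injections of 0.5 mg anti-PD-L1 or 0.5 mg of the control antibody IgG2b, and tumors were taken on d14. The 18 samples were 3 *Nr2f6*+/+ and 3 *Nr2f6*-/- with IgG2b, and 6 *Nr2f6*+/+ and 6 *Nr2f6*-/- with anti-PD-L1. The deletion was not limited to T cells, so other cells of the *Nr2f6*-/- hosts lacked the gene too.

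CXC chemokines are small secreted proteins that attract leukocytes through G protein-coupled receptors. *Ppbp* and *Pf4* encode proteins stored in platelet granules, and *Pf4* is also transcribed by some macrophages. *Cxcl1*, *Cxcl2* and *Cxcl3*, like processed *Ppbp*, attract neutrophils through *Cxcr2* and are induced through NF-κB. *Cxcl9* and *Cxcl10* are induced by interferon and attract activated T cells through *Cxcr3*. *Cxcl13* attracts *Cxcr5*+ B cells and follicular T cells, *Cxcl16* is a membrane-bound or shed ligand of *Cxcr6*, and *Cxcl14* is made mainly by epithelia.

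In the GENCODE annotation of GRCm38 (mm10), 8 of the 10 genes lie on chromosome 5. *Ppbp* (chr5:90768518-90770063), *Pf4* (chr5:90772435-90773383), *Cxcl3* (chr5:90786103-90789600), *Cxcl1* (chr5:90891241-90893115) and *Cxcl2* (chr5:90903871-90905938) form a plus-strand block of 137.4 kb, in which *Ppbp* and *Pf4* are 2.37 kb apart. *Cxcl9* (chr5:92321347-92328079) and *Cxcl10* (chr5:92346638-92348889) sit together on the minus strand, 18.6 kb apart, and *Cxcl13* (chr5:95956951-95961068) lies farther along on the plus strand. *Cxcl16* (chr11:70453983-70459984) and *Cxcl14* (chr13:56288643-56296551) are on the minus strand of other chromosomes. *Cxcl10* overlaps *Art3* and *Cxcl16* overlaps *Zmynd15*, each on the opposite strand, and since the strand setting of the counting is not given in the sources used here, their reads cannot be told apart with certainty. Of the distinct 22-base stretches in the last 300 bases of the annotated transcripts, 13.4% of those of *Cxcl2* also occurred in *Cxcl3* transcripts, which leaves some reads of this pair uncertain. For *Ppbp*, *Pf4* and *Cxcl1* none was shared with another gene.

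RefSeq promoter sequences (GRCm38.p6) were at hand for 9 of the 10 genes. The 250 bases upstream of the start site were searched on both strands for the κB consensus, for the interferon response core (GAAA, any 2 bases and GAAA again), for the GATA letters AGATAA and for the TATA letters TATAAA, and also for the exact κB letters GGGAATTTCC, which were read from the *Cxcl1* promoter. Beside *Cxcl1*, whose match was fixed by this choice, the exact letters lay in the promoters of *Cxcl2* and *Cxcl3*, 2 of the other 8 genes, against 0.0822% of the other 32850 promoters. The wider κB consensus, which includes the exact letters, was found in 4 of the 9, the same 3 genes and *Cxcl10*, against 7.25% of all 32851 promoters. *Cxcl10* and *Cxcl14* held the interferon core, against 2.98% of all promoters. TATAAA was found in *Ppbp*, *Cxcl3*, *Cxcl9* and *Cxcl13*, against 12.4%, and AGATAA was found in *Cxcl10*, against 9.99%. The 120 bases before the RefSeq start of *Cxcl1*, *Cxcl2* and *Cxcl3* are shown because these genes share 1 κB element, and the 250 bases before *Cxcl10* because it alone of the 9 held both a κB match and the interferon core. The RefSeq starts of *Cxcl2* and *Cxcl1* lie downstream of the GENCODE starts, so that the last 28 and 4 bases shown lie inside the GENCODE genes. Sequences are given 5′ to 3′ on the gene's strand, and capitals mark the κB consensus matches and, in *Cxcl10*, also the interferon core.
Cxcl1, chr5:90891125-90891244, plus strand: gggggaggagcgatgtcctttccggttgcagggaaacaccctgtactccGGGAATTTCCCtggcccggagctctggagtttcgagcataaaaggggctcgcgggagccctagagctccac
Cxcl2, chr5:90903779-90903898, plus strand: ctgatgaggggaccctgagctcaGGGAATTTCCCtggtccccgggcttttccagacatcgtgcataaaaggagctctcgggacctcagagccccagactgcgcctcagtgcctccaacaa
Cxcl3, chr5:90785981-90786100, plus strand: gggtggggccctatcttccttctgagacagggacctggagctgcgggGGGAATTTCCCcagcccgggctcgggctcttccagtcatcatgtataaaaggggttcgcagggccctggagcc
Cxcl10, chr5:92348890-92349139, minus strand: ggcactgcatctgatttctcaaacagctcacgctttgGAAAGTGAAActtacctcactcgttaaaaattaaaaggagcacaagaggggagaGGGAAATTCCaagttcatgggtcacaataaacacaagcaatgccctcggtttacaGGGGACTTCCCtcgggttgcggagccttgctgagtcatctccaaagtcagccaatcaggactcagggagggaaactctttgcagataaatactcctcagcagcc

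The exact κB letters stood at bases -71 to -62 before the RefSeq start of *Cxcl1*, -97 to -88 before *Cxcl2* and -73 to -64 before *Cxcl3*. In *Cxcl10* the interferon core stood at -213 to -204. These matches describe the letters of the promoters and were not tested for binding.

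The libraries were 3′-end libraries with 12473391 to 18609482 reads on genes per sample. *Nr2f6* had reads in all 9 *Nr2f6*+/+ libraries (20.2 to 200.8 normalized counts) and none in the 9 *Nr2f6*-/- libraries. A normalized count is the number of reads on a gene divided by the size factor of the sample, and 3 reads, the upper limit that a count of 0 allows, equalled 2.46 to 3.64 normalized counts. The labels number the libraries 28 to 39 and 43 to 48. The second set of 6 held only anti-PD-L1 samples (replicates 4 to 6 of both genotypes), so the treatments were also compared within the first set of 12. In bulk RNA, fewer cells of a type and less RNA per cell cannot be told apart. The study's text counts these groups in mice, with fewer anti-PD-L1 mice than the libraries used here, and the labels do not tie libraries to mice, so the p-values measure the spread between libraries.

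The genes differed widely in how many libraries held any read. *Cxcl9* and *Cxcl10* had reads in all 18 samples. *Pf4* and *Cxcl16* were at 0 in 4 samples each, *Cxcl2* and *Cxcl13* in 5 samples each, *Cxcl1* in 10, *Ppbp* and *Cxcl3* in 15 each, and *Cxcl14* in 17. The *Nr2f6*+/+ IgG2b libraries held reads of 9, 9 and 10 of the 10 genes, and each *Nr2f6*-/- IgG2b library held reads of 7. With anti-PD-L1 the number was 4 to 7 in *Nr2f6*+/+ and 2 to 6 in *Nr2f6*-/- libraries. The number of all genes with reads also differed by group. It was 13019 to 13655 in *Nr2f6*+/+ and 12254 to 12463 in *Nr2f6*-/- IgG2b libraries. With anti-PD-L1 it was 11107 to 12813 in *Nr2f6*+/+ and 11626 to 12706 in *Nr2f6*-/- libraries.

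**Figure D1:**
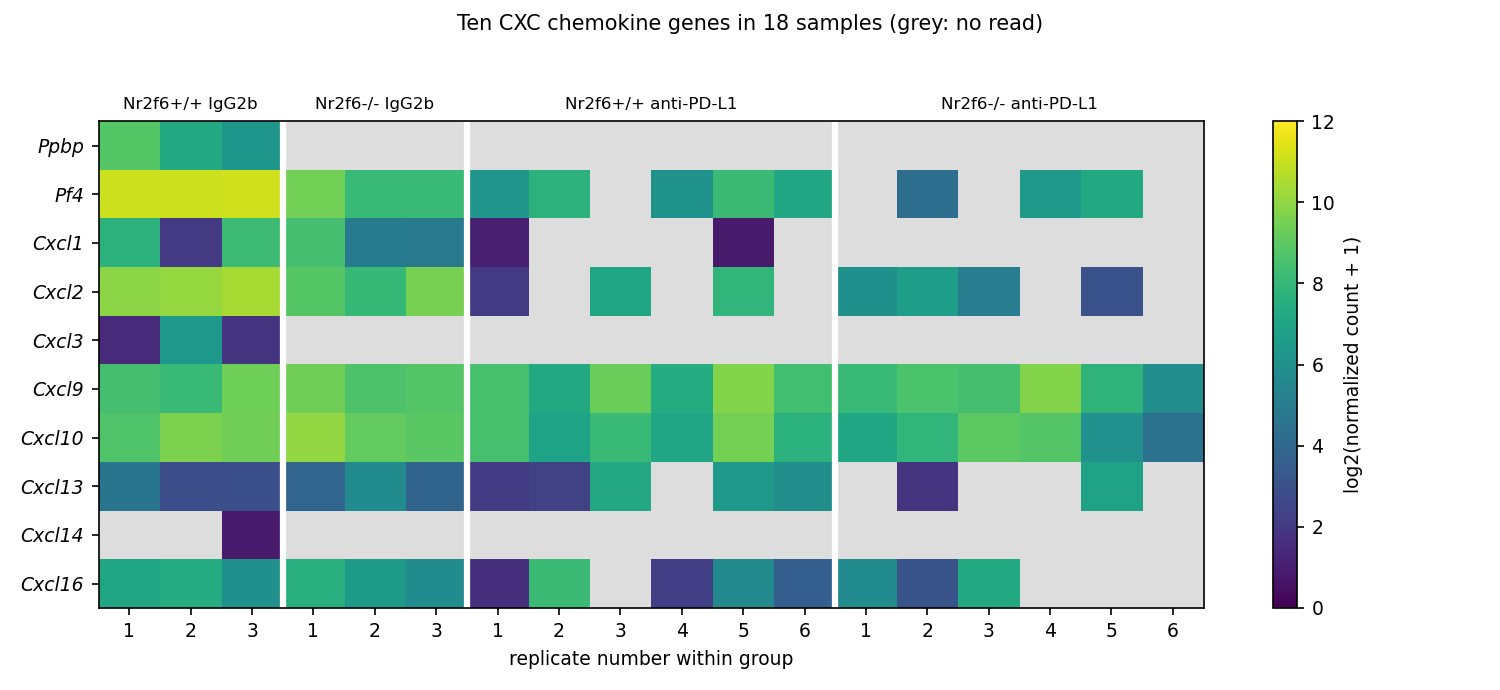
Level of the 10 CXC chemokine genes in the 18 samples. Rows are genes, columns are samples by group and replicate number, color is log2(normalized count + 1), and grey marks samples without a read; *Ppbp* and *Cxcl3* have color in the 3 *Nr2f6*+/+ IgG2b samples and are grey in the other 15.

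Of the 10 genes, 8 passed the filter of a mean of 10 normalized counts over the 18 samples, as did 11992 of all 37236 genes, and were tested with limma on log2(normalized count + 1). *Cxcl3* and *Cxcl14* did not pass. *Ppbp* and *Cxcl1* passed only through the groups in which they were high, so the counts of genes below describe the 8 and are no further support.

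*Ppbp*, whose product becomes a neutrophil attractant after cleavage, was detected in a single group. Its values were 452.4, 158.4 and 77.9 normalized counts in the 3 *Nr2f6*+/+ IgG2b samples (229.6 ± 197.1, SD, n = 3), from 515, 152 and 94 reads. It was at 0 in the other 15 samples: 3 *Nr2f6*-/- with IgG2b, 6 *Nr2f6*+/+ with anti-PD-L1 and 6 *Nr2f6*-/- with anti-PD-L1. The groups did not overlap, and the spread within the single positive group was wide. Against the floor of 3 reads per library, *Ppbp* had a mean at least 80.3-fold lower under PD-L1 blockade than under IgG2b in *Nr2f6*+/+, and, among IgG2b samples, at least 78.2-fold lower in *Nr2f6*-/-. Without *Nr2f6*+/+ IgG2b replicate 1 these bounds were 41.3 and 40.3.

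*Pf4*, which encodes platelet factor 4, had its highest values in the same 3 samples. It reached 2158, 2142 and 2269 normalized counts in *Nr2f6*+/+ IgG2b samples (2190 ± 69.3, SD, n = 3) and 703.0, 267.6 and 280.0 in *Nr2f6*-/- IgG2b samples (416.9 ± 247.9, n = 3). With anti-PD-L1 it ranged from 0 to 293.3 with a median of 110.6 in *Nr2f6*+/+ (1 of 6 at 0) and from 0 to 157.4 with a median of 9.55 in *Nr2f6*-/- (3 of 6 at 0). The order of group means was *Nr2f6*+/+ IgG2b, *Nr2f6*-/- IgG2b, *Nr2f6*+/+ anti-PD-L1, *Nr2f6*-/- anti-PD-L1. The first 2 of these groups did not overlap. The second and the third overlapped, since the highest *Nr2f6*+/+ anti-PD-L1 sample lay above the 2 lower *Nr2f6*-/- IgG2b samples.

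*Ppbp* and *Pf4* are known as platelet genes, and other platelet markers were looked up beside them. Of 15 platelet and megakaryocyte markers, 12 were at 0 in all 3 *Nr2f6*+/+ IgG2b samples, in which *Ppbp* and *Pf4* were highest, and 3 had reads there (*Itgb3*, *Gng11*, *Vwf*). Over all 18 samples 5 of the 15 were at 0 (*Gp1ba*, *Gp9*, *Tubb1*, *Treml1* and *Clec1b*). Others had reads with anti-PD-L1, where *Ppbp* was at 0. *Gp1bb* had 68 reads and *Gp5* 61 in *Nr2f6*+/+ replicate 5, which also had the highest *Pf4* value with anti-PD-L1, *Gp1bb* had 11 reads in *Nr2f6*-/- replicate 1, and *Itga2b* had 1 to 6 reads in 7 of the 12 anti-PD-L1 libraries. The summed level of the list was 560.8 to 877.6 normalized counts in *Nr2f6*+/+ and 555.8 to 729.6 in *Nr2f6*-/- IgG2b samples, and 198.6 to 1321 in *Nr2f6*+/+ and 30.7 to 443.4 in *Nr2f6*-/- anti-PD-L1 samples. Most of each sum was *Itgb3*, except in *Nr2f6*-/- anti-PD-L1 replicate 1 (30.7), where *Itgb3* had 6 reads, *Gng11* 13 and *Gp1bb* 11. The part of platelets in the *Ppbp* and *Pf4* values was not tested.

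Macrophage and monocyte markers were lower with anti-PD-L1, as were the means of *Pf4*, *Cxcl1* and *Cxcl2*. In *Nr2f6*+/+ IgG2b replicates 1, 2 and 3, macrophage sums of 17233, 20572 and 16629 went with *Cxcl1* values of 207.3, 3.13 and 296.0. In *Nr2f6*-/- IgG2b replicates 1, 2 and 3, sums of 11035, 9702 and 13249 went with *Cxcl1* values of 346.3, 30.2 and 28.1. *Pf4*, *Cxcl2* and the macrophage sums were lower in *Nr2f6*-/- than in *Nr2f6*+/+ IgG2b samples without overlap, as were 8.07% of all tested genes, while *Cxcl1* overlapped. All 14 of 14 markers had reads in both IgG2b groups, and their summed level was 16629 to 20572 normalized counts in *Nr2f6*+/+ and 9702 to 13249 in *Nr2f6*-/- IgG2b samples, against 1618 to 6805 in *Nr2f6*+/+ and 898.2 to 2626 in *Nr2f6*-/- anti-PD-L1 samples. All 14 estimates of the anti-PD-L1 effect averaged over genotypes were below 0, against 56.4% of all tested genes. Of the markers 9 were called lower, against 0.934% of all tested genes (among them *Adgre1*, *Cd14*, *Lyz2*, *C1qb* and *Arg1*). With anti-PD-L1 *Arg1* reached at most 16.7 normalized counts in *Nr2f6*+/+ and was at 0 in *Nr2f6*-/-. It passed the filter only through IgG2b samples, so its call is no further support. Dendritic cell markers summed to 1572 to 2489 normalized counts with IgG2b and 689.4 to 1660 with anti-PD-L1, with 1 of the 12 anti-PD-L1 samples above the lowest IgG2b sample. T cell markers summed to 64034 to 86459 with IgG2b and 75397 to 106291 with anti-PD-L1. The part of these cells in the chemokine values was not tested.

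**Figure D2:**
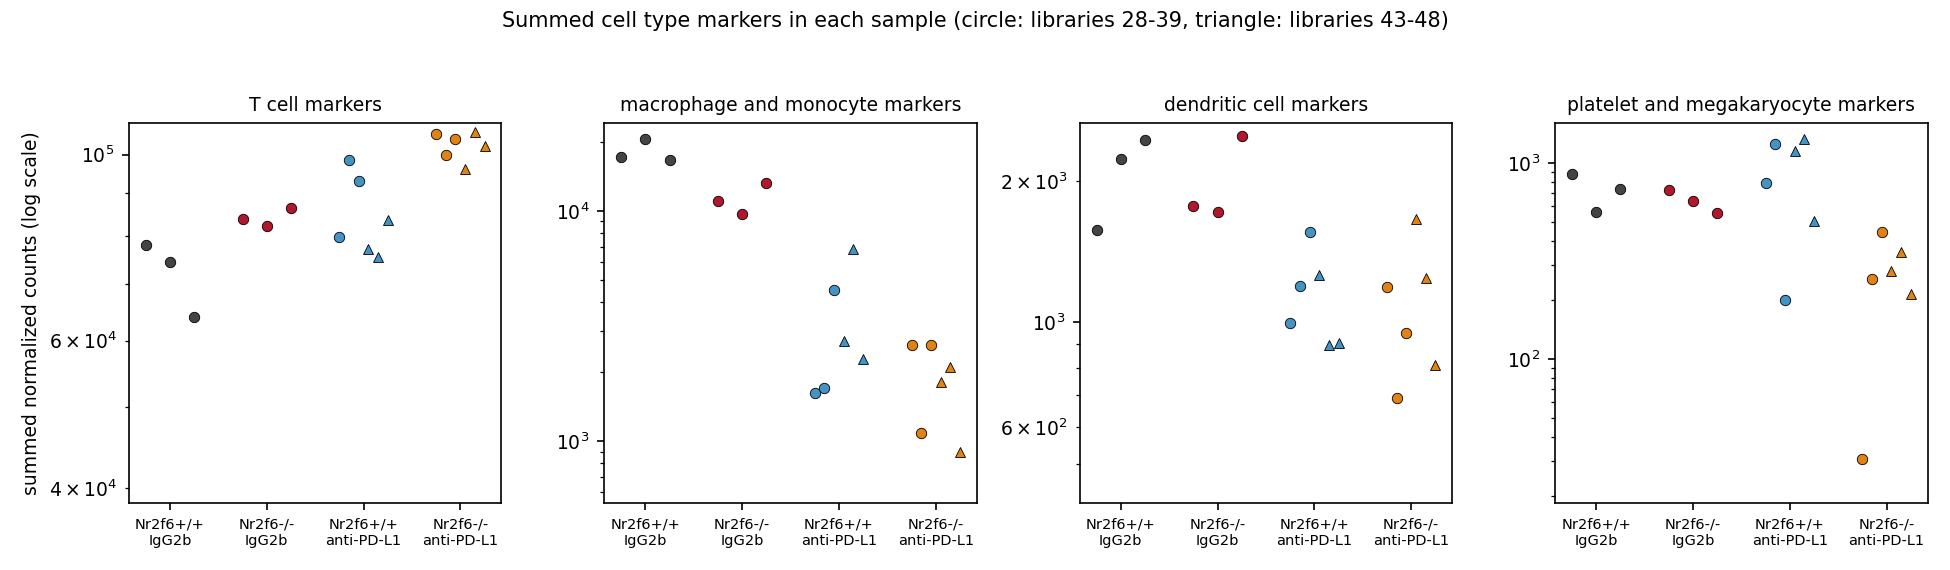
Summed normalized counts of 4 lists of cell type markers in each sample, on a log scale, by group; circles are libraries 28 to 39 and triangles libraries 43 to 48. The macrophage and monocyte sums of the 6 IgG2b samples (9702 to 20572) lie above those of the 12 anti-PD-L1 samples (898.2 to 6805). The platelet sums of the treatments overlap in *Nr2f6*+/+ but not in *Nr2f6*-/- samples (555.8 to 729.6 with IgG2b, 30.7 to 443.4 with anti-PD-L1). They are mostly *Itgb3*, except in the lowest sample.

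*Cxcl1*, a neutrophil attractant, was nearly confined to the IgG2b samples. It had 207.3, 3.13 and 296.0 normalized counts in *Nr2f6*+/+ (168.8 ± 150.2, SD, n = 3) and 346.3, 30.2 and 28.1 in *Nr2f6*-/- IgG2b samples (134.8 ± 183.1, n = 3). Among the 12 anti-PD-L1 samples, 2 *Nr2f6*+/+ samples held 1 read each and 10 were at 0. The IgG2b samples of both genotypes lay above all anti-PD-L1 samples, although *Nr2f6*+/+ IgG2b replicate 2 did so with 3 reads. In *Nr2f6*-/- mice the *Cxcl1* mean under blockade was lower by a factor of at least 45.6, or 9.85 without IgG2b replicate 1. In *Nr2f6*+/+ mice the ratio of the IgG2b to the anti-PD-L1 mean was 542.9 with a counting interval (95%, exact Poisson, of the 2 reads) of 150.3 to 4483, and it was 1028 without anti-PD-L1 replicate 1 and 338.4 without IgG2b replicate 3.

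*Cxcl2*, of the same subfamily, separated the treatments as well. It reached 973.4, 1111 and 1368 normalized counts in *Nr2f6*+/+ (1151 ± 200.4, SD, n = 3) and 450.9, 263.8 and 736.9 in *Nr2f6*-/- IgG2b samples (483.9 ± 238.3, n = 3). With anti-PD-L1 it ranged from 0 to 238.2 with a median of 1.57 in *Nr2f6*+/+ (3 of 6 at 0) and from 0 to 105.9 with a median of 20.0 in *Nr2f6*-/- (2 of 6 at 0). All 6 IgG2b samples lay above all 12 anti-PD-L1 samples, and the 2 IgG2b groups did not overlap. The highest anti-PD-L1 value, in *Nr2f6*+/+ replicate 5, belonged to the sample with the highest macrophage sum of its treatment. That sample also had the highest platelet and melanocyte marker sums of its treatment (1321 and 7149). In *Nr2f6*-/- the highest value, in replicate 2, went with a macrophage sum of 1086, where that group ranged from 898.2 to 2626.

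*Cxcl3*, the third gene with the exact κB letters, was nearly absent. It had 2, 80 and 3 reads in the *Nr2f6*+/+ IgG2b samples (1.76, 83.4 and 2.49 normalized counts) and was at 0 in the other 15. Its mean rested on replicate 2, which was also the sample with 3 reads of *Cxcl1*. *Cxcl14* had 1 read in *Nr2f6*+/+ IgG2b replicate 3 and none in the other 17 samples.

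*Cxcl9* and *Cxcl10*, the *Cxcr3* ligands, were present in every sample. *Cxcl9* had 353.2, 281.4 and 660.8 normalized counts in *Nr2f6*+/+ (431.8 ± 201.6, SD, n = 3) and 664.0, 396.7 and 447.6 in *Nr2f6*-/- IgG2b samples (502.8 ± 141.9, n = 3). With anti-PD-L1 it ranged from 153.9 to 862.6 with a median of 348.2 in *Nr2f6*+/+ and from 58.1 to 872.0 with a median of 310.2 in *Nr2f6*-/- samples. The groups overlapped throughout, and no neighbours in the order of group means were apart. *Cxcl10* had 416.4, 803.6 and 669.1 normalized counts in *Nr2f6*+/+ (629.7 ± 196.6, n = 3) and 1074, 553.1 and 479.8 in *Nr2f6*-/- IgG2b samples (702.3 ± 324.0, n = 3). With anti-PD-L1 it ranged from 125.4 to 713.9 with a median of 242.6 in *Nr2f6*+/+ and from 21.1 to 500.5 with a median of 190.5 in *Nr2f6*-/- samples. Its anti-PD-L1 means were below both IgG2b means, with overlap.

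*Cxcl13* and *Cxcl16*, ligands of *Cxcr5* and *Cxcr6*, were sparse. *Cxcl13* had 24.6, 6.25 and 6.63 normalized counts in *Nr2f6*+/+ (12.5 ± 10.5, SD, n = 3) and 14.3, 54.7 and 13.5 in *Nr2f6*-/- IgG2b samples (27.5 ± 23.5, n = 3). With anti-PD-L1 it ranged from 0 to 150.6 with a median of 32.5 in *Nr2f6*+/+ (1 of 6 at 0), and in *Nr2f6*-/- 4 of 6 samples were at 0, 1 had 3 reads and replicate 5 had 120.5. *Cxcl16* had 130.0, 168.9 and 63.8 normalized counts in *Nr2f6*+/+ (120.9 ± 53.1, n = 3) and 185.5, 91.4 and 54.1 in *Nr2f6*-/- IgG2b samples (110.3 ± 67.7, n = 3). With anti-PD-L1 it ranged from 0 to 285.5 with a median of 7.43 in *Nr2f6*+/+ (1 of 6 at 0) and from 0 to 156.7 with a median of 3.91 in *Nr2f6*-/- (3 of 6 at 0). The groups of both genes overlapped.

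**Figure D3:**
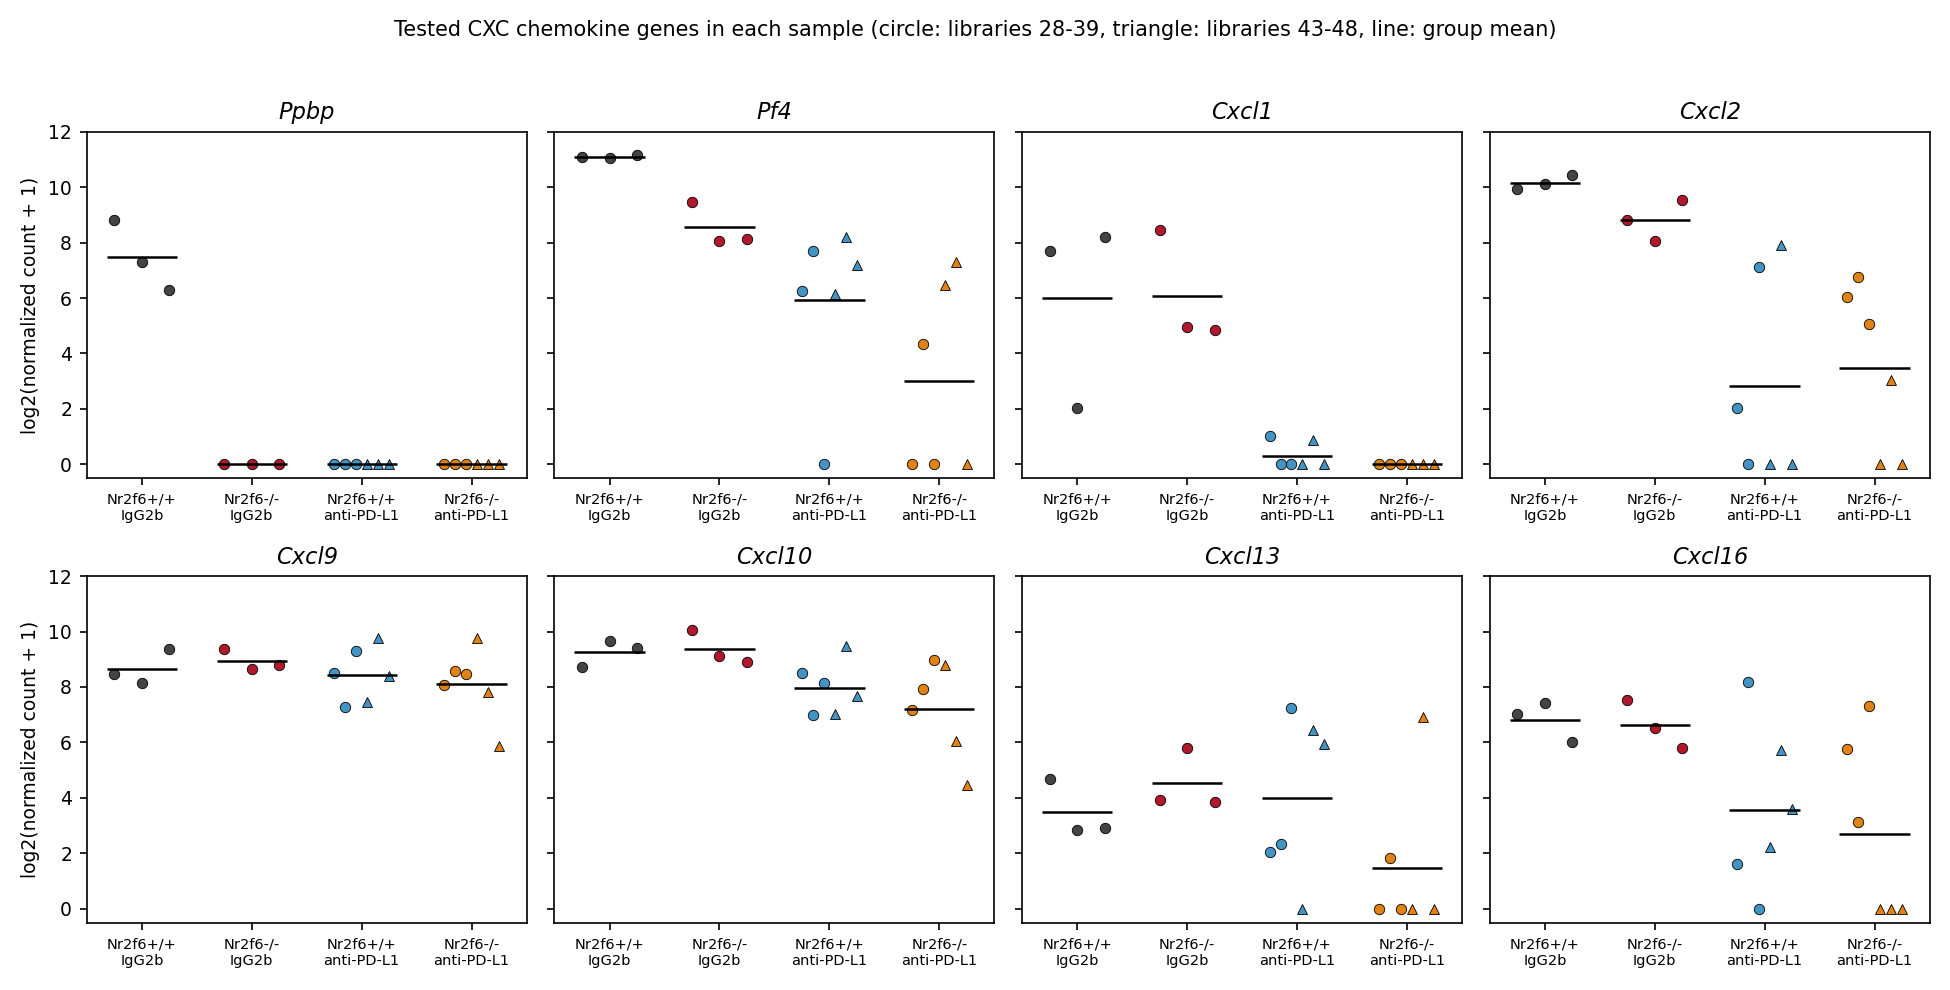
log2(normalized count + 1) of the 8 tested CXC chemokine genes in each sample, by group; circles are libraries 28 to 39, triangles libraries 43 to 48, and lines are group means. *Cxcl1* and *Cxcl2* of the 6 IgG2b samples lie above those of the 12 anti-PD-L1 samples, whereas *Cxcl9* overlaps in all groups.

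The effect of PD-L1 blockade was first compared within *Nr2f6*+/+ mice (6 anti-PD-L1 against 3 IgG2b samples). *Ppbp* fell by 7.48 on the log2 scale (SE 1.19, limma, adjusted p = 0.00136) and was the only one of the 8 genes past the threshold, where 0.242% of all tested genes were called, all of them lower. Its adjusted p ranged from 8.33e-07 to 0.504 over the alternatives and from 0.00146 to 0.0349 when single samples were left out. This fitted change depends on the pseudocount because the anti-PD-L1 samples were at 0. *Ppbp* was tested at all only because of its 3 *Nr2f6*+/+ IgG2b values, so its p-values here and below describe these samples and are no further support. The same limit holds for all *Cxcl1* p-values here and below, since *Cxcl1* passed the filter only through its IgG2b values. *Cxcl2* had an estimate of -7.31 (SE 1.75, limma, adjusted p = 0.0732), *Cxcl1* of -5.67 (SE 1.43, limma, adjusted p = 0.103) and *Pf4* of -5.18 (SE 1.59, limma, adjusted p = 0.281). Those 4 genes did not overlap between the treatments, all lower with anti-PD-L1, as was the case for 3.22% of all tested genes. The estimates of *Cxcl9* (-0.21, 95% interval -1.49 to 1.06), *Cxcl10* (-1.28, -2.78 to 0.23), *Cxcl13* (0.51, -3.04 to 4.07) and *Cxcl16* (-3.26, -6.86 to 0.34) had intervals that included 0. The median of the 8 estimates was -4.22, with *Ppbp* either as fitted or at its bound, against -0.10 over all tested genes. At an unadjusted p under 0.05 the same 4 genes were lower, against 5.05% of all tested genes. edgeR on the reads called 0 of the 8 (*Ppbp* adjusted p = 0.0867), where it called 0.158% of all genes lower and none higher, with the same 4 under an unadjusted p of 0.05. DESeq2 called *Cxcl1* lower (adjusted p = 0.000126) and did not call *Ppbp* (adjusted p = 0.504), where it called 0.494% of all genes lower. *Cxcl1* passed the limma threshold without *Nr2f6*+/+ IgG2b replicate 2 (adjusted p = 0.0369), and *Cxcl2* passed it without *Nr2f6*+/+ anti-PD-L1 replicate 3 or 5 (adjusted p = 0.0348 and 0.0259).

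Within *Nr2f6*-/- mice (6 anti-PD-L1 against 3 IgG2b samples), limma called 0 of the 8 genes and 0.325% of all tested genes, 0.192% of them lower. At an unadjusted p under 0.05 there were 5 of the 8, all lower, against 5.35% of all tested genes: *Cxcl1* (-6.09, SE 1.43, limma, adjusted p = 0.0568), *Pf4* (-5.54, SE 1.59, limma, adjusted p = 0.176), *Cxcl2* (-5.32, SE 1.75, limma, adjusted p = 0.254), *Cxcl10* (-2.14, SE 0.73, limma, adjusted p = 0.274) and *Cxcl16* (-3.92, SE 1.76, limma, adjusted p = 0.457). *Pf4*, *Cxcl1* and *Cxcl2* did not overlap between the treatments, lower with anti-PD-L1, as was the case for 3.15% of all tested genes. *Ppbp* was at 0 in all 9 samples and had no change to test. edgeR and DESeq2 each called *Cxcl1* lower (adjusted p = 0.022 and 1.71e-05), where they called 0.192% and 0.741% of all genes lower. By limma, *Cxcl1* had adjusted p = 0.0297 without *Nr2f6*+/+ IgG2b replicate 2, a sample that enters this comparison only through the shared estimate of the spread. The median estimate of the 7 genes with reads was -3.92, against -0.04 over all tested genes.

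Averaged over the genotypes (12 anti-PD-L1 against 6 IgG2b samples), 4 of the 8 genes were called, all lower with anti-PD-L1, where 1.13% of all tested genes were called, 0.934% lower and 0.2% higher. At an unadjusted p under 0.05 there were 6 of the 8, against 7.47% of all tested genes in that direction. *Cxcl2* fell by 6.31 (SE 1.24, limma, adjusted p = 0.00644), *Cxcl1* fell by 5.88 (SE 1.01, limma, adjusted p = 0.00199) and *Pf4* fell by 5.36 (SE 1.12, limma, adjusted p = 0.013). *Ppbp* had -3.74 (SE 0.84, limma, adjusted p = 0.0199), which is the mean of -7.48 in *Nr2f6*+/+ and 0 in *Nr2f6*-/- mice. *Cxcl1* and *Cxcl2* did not overlap between the treatments over both genotypes, against 0.309% of all tested genes that were lower in this way. *Cxcl10* (-1.71, SE 0.52, limma, adjusted p = 0.108) and *Cxcl16* (-3.59, SE 1.24, limma, adjusted p = 0.183) missed the threshold, and *Cxcl9* (-0.53, 95% interval -1.43 to 0.38) and *Cxcl13* (-1.28, -3.79 to 1.23) had intervals that included 0. edgeR called *Pf4*, *Cxcl1* and *Cxcl2* lower and not *Ppbp*, where it called 0.659% of all genes lower. DESeq2 called *Cxcl1* lower and gave *Pf4* no p-value, where it called 1.46% of all genes lower. By limma, *Ppbp* missed the threshold without *Nr2f6*+/+ IgG2b replicate 1 (adjusted p = 0.0708) and *Pf4* without *Nr2f6*+/+ IgG2b replicate 2 (0.0511). Both also missed it without *Nr2f6*-/- IgG2b replicate 1 (limma, adjusted p = 0.0521 and 0.0538).

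With library set as a covariate, *Cxcl2* (-4.98, limma, adjusted p = 0.093) and *Ppbp* (limma, adjusted p = 0.0779) were no longer called, while *Pf4* and *Cxcl1* were. *Pf4* also missed the threshold without the filter on low values (limma, adjusted p = 0.0663), as did *Cxcl1* with a filter at a mean of 50 (limma, adjusted p = 0.0629). Within the first library set alone the averaged comparison called *Pf4*, *Cxcl1* and *Cxcl2* and lost *Ppbp* (limma, adjusted p = 0.0725). In *Nr2f6*+/+ they were -7.48 for *Ppbp*, -6.44 for *Pf4*, -5.64 for *Cxcl1* and -7.10 for *Cxcl2*, and in *Nr2f6*-/- they were -7.11 for *Pf4*, -6.09 for *Cxcl1* and -2.85 for *Cxcl2*, against -5.32 over both sets. The second library set held no IgG2b sample, so it gives no treatment value.

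**Figure D4:**
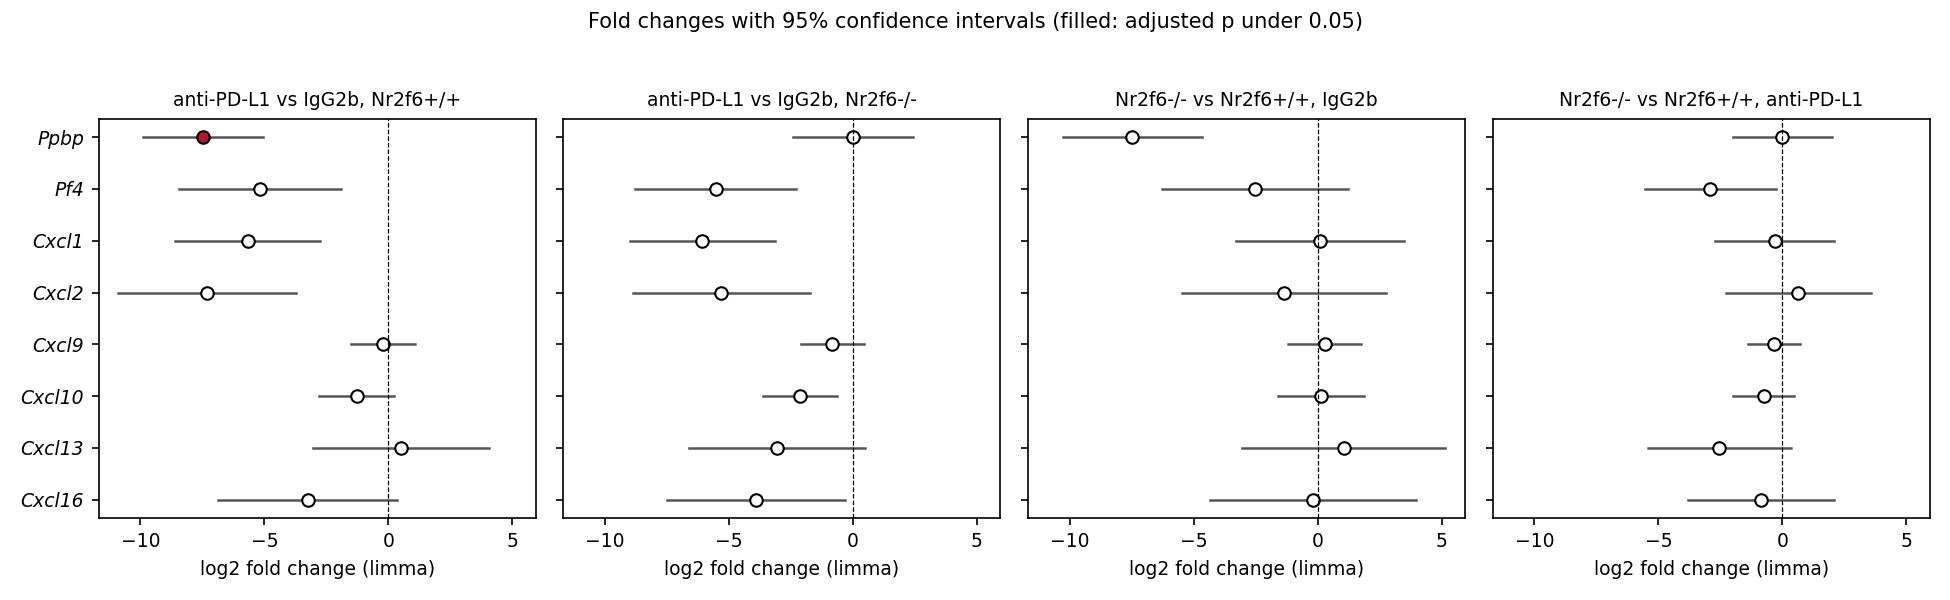
Limma log2 fold changes of the 8 tested genes in 4 comparisons, with 95% confidence intervals as lines; filled points have an adjusted p under 0.05. *Ppbp* in *Nr2f6*+/+ mice (-7.48) is the filled point, and the intervals of *Cxcl9* include 0 in all 4 panels.

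The effect of *Nr2f6* deletion was compared under IgG2b (3 against 3 samples). Limma called 0 of the 8 genes and 0% of all 11992. *Ppbp* had the smallest p of all tested genes (-7.48, SE 1.37, limma, adjusted p = 0.0836) and was the only one of the 8 under an unadjusted p of 0.05 by limma, against 3.32% of all tested genes that were lower at this level. Without *Nr2f6*+/+ anti-PD-L1 replicate 5, which enters only through the spread, its adjusted p was 0.049. *Ppbp*, *Pf4* (-2.54, 95% interval -6.30 to 1.21) and *Cxcl2* (-1.36, -5.49 to 2.77) did not overlap between the genotypes, lower in *Nr2f6*-/-, as was the case for 8.07% of all tested genes. In linear means, *Pf4* was 5.25 times and *Cxcl2* 2.38 times higher in *Nr2f6*+/+ than in *Nr2f6*-/- samples, the first ratio being 8.0 without *Nr2f6*-/- replicate 1. Estimates were 0.10 for *Cxcl1* (95% interval -3.28 to 3.48), 0.28 for *Cxcl9* (-1.19 to 1.76), 0.12 for *Cxcl10* (-1.62 to 1.85), 1.04 for *Cxcl13* (-3.06 to 5.14) and -0.20 for *Cxcl16* (-4.36 to 3.96), and the wide intervals leave room for sizeable differences either way. The sign for *Cxcl1* flipped with a pseudocount of 10 and with edgeR and DESeq2. The macrophage sums given above did not overlap between these 2 groups either. edgeR called 0 of the 8 and 0% of all genes, and DESeq2 called 0 of the 7 it tested and 0.75% of all genes, with *Ppbp* alone under an unadjusted p of 0.05 in each.

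Under anti-PD-L1 (6 against 6 samples), limma, edgeR and DESeq2 each called 0 of the chemokine genes, where they called 0.175%, 0.183% and 1.57% of all tested genes. *Pf4* (-2.91, 95% interval -5.56 to -0.25, limma, adjusted p = 0.465) was the only one of the 8 under an unadjusted p of 0.05 by limma, against 5.07% of all tested genes that were lower at this level. By edgeR there was none of the 8. DESeq2 gave *Pf4* no p-value and had none of the 7 it tested. In 0 of the 8 were all samples of 1 genotype below the other, against 0.2% of all tested genes that were lower in *Nr2f6*-/- in this way. Within the library sets the *Pf4* estimate was -3.22 for replicates 1 to 3 and -2.60 for replicates 4 to 6, whereas *Cxcl2* (2.89 and -1.62) and *Cxcl16* (2.14 and -3.86) pointed in opposite directions. *Ppbp* was at 0 in all 12 samples.

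Whether the anti-PD-L1 effect differed between the genotypes was tested with the interaction of the same fit. Limma and edgeR called 0 of the 8 genes and 0% of all genes, and DESeq2 called 0 of the 7 it tested and 0.648% of all genes. *Ppbp* had a difference of 7.48 (SE 1.68, limma, unadjusted p = 0.000113, adjusted p = 0.33) and was the only one of the 8 under an unadjusted p of 0.05 by limma, against 3.09% of all tested genes in the same direction, while edgeR and DESeq2 had none. This difference comes from the *Nr2f6*+/+ IgG2b samples, since the other 3 groups were at 0. The differences for *Pf4* (-0.36, 95% interval -4.96 to 4.24), *Cxcl1* (-0.42, -4.56 to 3.72) and *Cxcl2* (1.99, -3.07 to 7.05) had intervals that included 0. The 2 treatment comparisons share no samples, while the *Nr2f6*+/+ IgG2b samples enter both the treatment and the genotype comparison of *Ppbp*.

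The other ligands of the family were rarely detected. *Cxcl5* had 7 reads in *Nr2f6*+/+ IgG2b replicate 1 and was at 0 elsewhere, *Cxcl17* had 1 read in *Nr2f6*-/- anti-PD-L1 replicate 3, and *Cxcl12* and *Cxcl15* were at 0 in all 18 samples. *Cxcl11* was not analysed here. None of them was tested.

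Of the receptors, *Cxcr3*, *Cxcr4*, *Cxcr5* and *Cxcr6*, which T cells are known to carry, passed the filter. *Cxcr6*, the receptor of *Cxcl16*, had 20250 ± 1500 (SD, n = 3) and 19096 ± 1788 (n = 3) normalized counts in *Nr2f6*+/+ and *Nr2f6*-/- IgG2b samples and 24780 ± 7192 (n = 6) and 32554 ± 4995 (n = 6) with anti-PD-L1. Its 6 *Nr2f6*-/- anti-PD-L1 samples (26857 to 41137) lay above the 3 *Nr2f6*-/- IgG2b samples, as was the case for 1.97% of all tested genes. The estimate within *Nr2f6*-/- was 0.76 (SE 0.20, limma, adjusted p = 0.11). In *Nr2f6*+/+ the anti-PD-L1 samples (15104 to 35133) overlapped the IgG2b samples (18697 to 21691). *Cxcr3*, the receptor of *Cxcl9* and *Cxcl10*, ranged from 770.0 to 2440 normalized counts over the 18 samples, with a treatment estimate averaged over genotypes of -0.20 (SE 0.23, limma, adjusted p = 0.824). *Cxcr4* had an estimate of -1.01 (SE 0.36, limma, adjusted p = 0.22) in the same comparison, and *Cxcr5*, the receptor of *Cxcl13*, was at 0 in 2 samples and reached 138.1. *Cxcr2*, the receptor of *Cxcl1*, *Cxcl2*, *Cxcl3* and processed *Ppbp*, had 8 reads over all samples, *Cxcr1* had 1, *Ackr3* had 4 and *Ackr1* had none. Of the 8 receptors 4 were tested and 0 were called by limma in any of the 6 comparisons. Since 0% to 1.13% of all tested genes were called in these comparisons, this count says little about the receptors.

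The genes whose log2 values over the 18 samples were most like those of each chemokine, by Pearson's r among the tested genes, were picked as a description without a test. The samples share the 4 groups and 2 library sets, so much of each r reflects group levels. For *Ppbp* the nearest were *Pdpn* (r = 0.99), *1700049G17Rik* (0.93) and *Hes1* (0.92), with means of 60.6, 86.7 and 105.4 normalized counts in *Nr2f6*+/+ IgG2b samples and under 1 in every other group. *Pf4* was closest to *Clec4a1* (r = 0.85), *Sema6d* (0.84) and *Map2k1* (0.81). *Cxcl1* was closest to *Cd40* (r = 0.85), *RP23-380L19.3* (0.84) and *Ddx5* (0.82), and *Cxcl2* to *P2ry6* (0.90), the MHC class II gene *H2-Ab1* (0.89) and *Gm20324* (0.85). *Cxcl9* was closest to *Cxcl10* (r = 0.83), *Fasn* (0.77) and *Pck2* (0.76), whereas *Cxcl10* was closest to *Tmem176b* (r = 0.88), *Dusp14* (0.86) and *Galnt10* (0.85). For *Cxcl13* the nearest were *Kif24* (r = 0.77), *D19Bwg1357e* (0.73) and *P2ry13* (0.73), and for *Cxcl16* they were *Lrig1* (r = 0.81), *Ier5* (0.80) and *Gm23345* (0.78). Of the block on chromosome 5, *Cxcl3* had not passed the filter and could not be ranked. Among *Ppbp*, *Pf4*, *Cxcl1* and *Cxcl2*, none was among the 3 nearest of another. Their pairwise r ranged from 0.38 (*Pf4* and *Cxcl2*) to 0.69 (*Cxcl1* and *Cxcl2*).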

How the data were processed

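CD3+ TILs were enriched by the authors with CD4 and CD8 beads, sorted as CD3+ live cells and sequenced as QuantSeq 3′ libraries. The authors trimmed reads with Cutadapt and Trimmomatic, removed reads under 22 nucleotides, mapped with STAR and Bowtie2 to mm10, kept primary alignments, counted with HTSeq-count and used DESeq2. Versions, annotation and strand are not given in the sources used here. The deposited table holds a signal per gene and library, namely the reads over a size factor. All values were whole multiples (100%, within 0.01) of 1 step per column, from which reads were recovered. No columns were identical.

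Limma (3.58.1, R 4.3.3) was run on log2(normalized count + 1) for genes with a mean of at least 10, in 1 fit of the 4 group means over 18 samples (eBayes with trend, two-sided, Benjamini-Hochberg, threshold 0.05). edgeR (4.0.16, quasi-likelihood, TMM) and DESeq2 (1.42.0) on recovered reads, other pseudocounts, filters and scaling, the first library set, library set as covariate, a replicate block and leaving out each sample were alternatives. The limma step was tested on simulated data. Floors (3 reads) and intervals cover counting error only. The genes, lists and tests were chosen with earlier results of these data known. Genes named were the 10 chemokines, the other CXC ligands, the CXC receptors, *Nr2f6*, the 3 genes of highest r to each tested chemokine, and markers bearing on them. Lists of neutrophil, B cell, fibroblast, endothelial and melanocyte markers were also counted, and their results are given at the end.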

Additional observations from a re-analysis of the deposited data

Results flagged for a closer look

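In the groups of 6 samples, the highest or lowest sample of each detected gene was compared with its nearest neighbour, and 3 of 13 such groups held a sample whose gap to the next one, as a share of the group's range, exceeded Dixon's limit. For normally distributed values chance gives about 1 in 20 groups, and the rate for sparse counts such as these was not computed. *Cxcl13* in *Nr2f6*-/- anti-PD-L1 replicate 5 was at 120.5 normalized counts against 2.60 in the next sample, a gap of 0.978 of the range. *Cxcl16* in *Nr2f6*+/+ anti-PD-L1 replicate 2 was at 285.5 against 52.6, a gap of 0.816, and *Cxcl16* in *Nr2f6*-/- anti-PD-L1 replicate 3 was at 156.7 against 53.9, a gap of 0.656. The 3 values were in different libraries.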

How the results depend on the processing

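Replicate numbers did not pair the samples, since the deviations of same-numbered samples correlated at -0.029 to 0.037 over 21 pairs. Under the alternatives 424 log2 estimates stayed on their side of the threshold with the same direction, 12 fell short of it, 11 newly passed it and 15 changed sign. With single samples left out 835 stayed, 4 fell short, 5 newly passed and 20 changed sign. Part of the estimates that stayed were fixed in advance, so these counts overstate stability. *Ppbp* had an estimate of 0 in every setting where both groups were at 0. Leaving out a sample of a group outside a comparison changes its p-value but not its estimate. The cause of the changes was not tested, except that a filter at a mean of 50 drops *Ppbp* and *Cxcl13*. Anti-PD-L1 in *Nr2f6*+/+ mice gave 1 called chemokine gene, and 3 with a pseudocount of 10, 0 with the filter at 50, 2 in the first library set alone and 0 with edgeR. In *Nr2f6*-/- mice the count was 0, and 1 with a pseudocount of 0.5, with the replicate block (*Pf4*), with edgeR and with DESeq2. Averaged over genotypes it was 4, and 2 with the filter at 50 (*Pf4* and *Cxcl2*), and 2 with library set as a covariate and with the replicate block (*Pf4* and *Cxcl1* in both), and 1 with DESeq2. Under IgG2b the genotype comparison gave 0, and 1 (*Ppbp*) with a pseudocount of 10 and without the filter, where the interaction also gave 1. With single samples left out the counts were 1 to 2, 0 to 1, 2 to 4, 0 to 1, 0 to 0 and 0 to 0 in the order *Nr2f6*+/+, *Nr2f6*-/-, averaged, genotype under IgG2b, genotype under anti-PD-L1 and interaction. Among all 11992 tested genes the calls were then 6 to 31, 13 to 45, 55 to 165, 0 to 1, 9 to 27 and 0 to 0 in the same order. The lowest averaged count came without *Nr2f6*-/- IgG2b replicate 1, the count of *Nr2f6*-/- mice was highest without *Nr2f6*+/+ IgG2b replicate 2, and that of *Nr2f6*+/+ mice was 2 without this sample and without *Nr2f6*+/+ anti-PD-L1 replicate 3 or 5.

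Estimates that changed sign were all short of the threshold. With edgeR and DESeq2 these were *Cxcl13* averaged over genotypes (0.80 and 0.80), *Cxcl1* by genotype under IgG2b (-0.33 and -0.32, and -0.23 with a pseudocount of 10) and *Cxcl2* by genotype under anti-PD-L1 (-0.84 and -0.85). In the first library set alone they were *Cxcl9* (0.010), *Cxcl10* (0.13) and *Cxcl16* (2.14) by genotype under anti-PD-L1, and the interaction of *Cxcl10* (0.017) and *Cxcl16* (2.34). The interaction of *Pf4* was 0.75 with a pseudocount of 10 and 0.81 with edgeR, and that of *Cxcl1* was 0.18 with a pseudocount of 10. With single samples left out, the effect in *Nr2f6*+/+ mice ranged from -0.47 to 0.14 for *Cxcl9* and from -0.13 to 1.31 for *Cxcl13*. By genotype under IgG2b the ranges were -1.87 to 1.21 for *Cxcl1*, -0.24 to 0.34 for *Cxcl10* and -0.66 to 0.22 for *Cxcl16*, and under anti-PD-L1 they were -0.017 to 1.65 for *Cxcl2*, -0.68 to 0.095 for *Cxcl9* and -1.78 to 0.061 for *Cxcl16*. For the interaction they were -1.55 to 0.24 for *Pf4*, -1.53 to 1.55 for *Cxcl1* and -1.58 to 0.26 for *Cxcl16*.

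Among all tested genes, calls in *Nr2f6*+/+ mice were 29, and 60 with a pseudocount of 10, 19 with the filter at 50 and with edgeR. They were 30 in the first set, 12 with the library-set covariate and with the block, and 94 with DESeq2 (36 higher). In *Nr2f6*-/- mice they were 39, and 39 with a pseudocount of 0.5, 17 without the filter and 8 in the first set. They were 27 with the block, 36 with edgeR and 230 with DESeq2 (143 higher, against 16). Averaged they were 136, and 211 with a pseudocount of 10, 88 without the filter and 115 with the filter at 50. They were 95 in the first set, 69 with the covariate and with the block, and 333 with DESeq2 (162 higher, against 24). Under IgG2b they were 0, and 1 with a pseudocount of 10, 14 without the filter and 88 with DESeq2. Under anti-PD-L1 they were 21, and 9 without the filter, 34 in the first set and 184 with DESeq2. For the interaction they were 0, and 5 without the filter and 76 with DESeq2. Scaling to equal totals moved the median of all genes in *Nr2f6*+/+ mice from -0.10 to -0.19, and the *Pf4* level of *Nr2f6*+/+ IgG2b samples to 2291. Genes at 0 limit every fold to the floor of 3 reads.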

Other observations

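Of 31 markers of further cell types 15 passed the filter, and the lists are described by their summed level. Neutrophil markers, whose cells follow *Cxcl1* and *Cxcl2*, summed to 5.21 to 197.9 normalized counts with IgG2b and 0 to 322.0 with anti-PD-L1, and *Cxcr2* had 8 reads in all. B cell markers summed to 0 to 193.3 over all samples with *Cd79a* at 0 in all 18, fibroblast markers to 0 to 457.5 and endothelial markers to 85.6 to 430.1. Melanocyte markers, which the tumor line carries, summed to 2495 to 4665 in *Nr2f6*+/+ and 1156 to 2336 in *Nr2f6*-/- IgG2b samples, against 2026 to 7149 and 736.2 to 4371 with anti-PD-L1. These sums overlapped between the treatments in both genotypes. The part of tumor cells in the chemokine values was not tested.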
